A study of Rattus norvegicus with 294 samples.

Results

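The transcripts described here are those of Bglap, which encodes osteocalcin, and Mgp, which encodes matrix Gla protein. They were 2 of the 14217 genes that an Affymetrix rat expression array measured with probe sets listed for 1 gene alone, and each had 1 such probe set (1369142_at for Bglap, 1367568_a_at for Mgp). In the RefSeq annotation of the GRCr8 rat assembly, Bglap lies on chromosome 2 from 176136341 to 176137318, and Mgp on chromosome 4 from 171497472 to 171500888. The rule by which both were taken used their names and no measured value, but earlier results of these data were known when they were chosen.

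All animals were Sprague-Dawley female rats, ovariectomized at 6 months of age and then left without treatment for 8 weeks. They received weekly subcutaneous injections of vehicle, or of a sclerostin antibody at 3 or 50 mg/kg, until day 183. Sclerostin is a protein secreted by osteocytes that inhibits Wnt signalling, so the antibody removes an inhibitor of bone formation. Bone was taken during dosing on days 8, 29, 85 and 183, after the end of dosing on days 197 and 267 for 3 mg/kg, and on days 237 and 309 for 50 mg/kg, each time with a vehicle group of that day. Osteoblasts, the lining cells of quiescent bone surfaces, and osteocytes embedded in the matrix were enriched by laser capture from cryosections of the third lumbar vertebra of the first 5 animals of each group. Calcein given 13 and 3 days before the end marked the forming surfaces for the capture. The 294 arrays came from 97 osteoblast, 100 lining cell and 97 osteocyte captures in 60 groups of 3 to 5. There was no group of intact rats, so every value refers to ovariectomized animals, and no capture holds 1 cell type alone. The labels do not name the rat behind an array, so captures from 1 rat could not be linked, and comparisons between cell types treat all arrays as independent. They also do not state an RNA extraction batch, and sample numbers fell in separate ranges for days 8 to 85, day 183 and days 197 to 309. The passage of time and sample handling therefore cannot be told apart, and handling within a day is not given. The signal range of the arrays, the gap between the 90th and 50th percentile of all probe sets, did not overlap between vehicle and treated arrays in 4 of 36 comparisons. These were osteoblasts at 50 mg/kg on day 29 (3.43 to 3.65 in vehicle, 2.96 to 3.34 treated), day 85 (2.95 to 3.07, 3.11 to 3.28) and day 237, and osteocytes after 3 mg/kg on day 197 (3.31 to 3.43, 3.06 to 3.19), and its part in the results of those days was not tested beyond its use as a covariate.

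Osteocalcin and matrix Gla protein are small secreted proteins in which some glutamate residues are carboxylated by a vitamin K-dependent enzyme to Gla, a residue that binds calcium. Osteocalcin is made almost entirely by cells of the osteoblast lineage, late in their maturation, and is deposited in bone mineral. Matrix Gla protein is made mainly by chondrocytes and vascular smooth muscle cells, binds bone morphogenetic proteins and inhibits calcification of cartilage and arteries. RUNX2, a transcription factor required for osteoblast formation, is known to bind the rat osteocalcin promoter, and DLX, AP-1 and Notch-related factors act on the same gene.

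The promoter is shown to place these regulators, which are described with their own values further on. The 250 bases before the start of Bglap, chr2:176137319-176137568 on the minus strand of GRCr8 as RefSeq gives them, hold 1 match to the RUNX motif AACCACA and 1 to the TATA-box motif TATAAA, both in capitals.
Bglap: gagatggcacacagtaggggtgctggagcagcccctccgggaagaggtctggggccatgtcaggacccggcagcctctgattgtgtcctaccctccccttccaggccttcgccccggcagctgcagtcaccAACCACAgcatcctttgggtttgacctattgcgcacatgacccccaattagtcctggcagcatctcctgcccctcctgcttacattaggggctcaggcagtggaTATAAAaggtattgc
The RUNX match begins 119 bases before the start of the gene and the TATA match 15 bases before it. Searched on both strands (TGTGGTT is the other strand of AACCACA, and TTTATA that of TATAAA, and the motifs share no bases), AACCACA is in 4.59% of the 33469 rat promoters of this length that RefSeq listed, and TATAAA in 12.9%. A match is a string of letters and not a measured binding site.

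Both genes gave a strong signal in these captures, and both were highest in osteocytes. In the array's own ranking of all probe sets, Bglap had a median percentile of 99.5 in osteoblasts, 98.4 in lining cells and 99.8 in osteocytes. Mgp had a median percentile of 86.6 in osteoblasts, 87.5 in lining cells and 98.5 in osteocytes. Across vehicle arrays, compared after quantile normalization because the deposited osteoblast, lining cell and osteocyte arrays differed in their overall signal, 40 arrays of each cell type entered the fit with the day as a term.

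On this quantile-normalized scale the Bglap level in vehicle rats was 7.85 to 11.77 in osteoblasts on the log2 scale, with a median of 9.93. In lining cells it was 6.47 to 10.77 with a median of 8.46, and in osteocytes 10.05 to 12.74 with a median of 11.48. Osteocytes were the highest and lining cells the lowest in the mean of each of the 8 days. The osteoblast mean was 3.20-fold that of lining cells (difference 1.68 ± 0.13 on the log2 scale, SE; limma, adjusted p = 1.83e-21) and 2.38-fold below that of osteocytes (adjusted p = 1.43e-15). The lining cell mean was 7.61-fold below that of osteocytes (adjusted p = 1.06e-42). Calls were common in these comparisons: 33.6% of all genes tested passed between osteoblasts and lining cells, 63.7% between osteoblasts and osteocytes and 58.7% between lining cells and osteocytes. As deposited, the mean Bglap levels in vehicle were 10.42 in osteoblasts, 8.30 in lining cells and 11.11 in osteocytes. The order was the same, but the size of the osteoblast differences depended on the normalization.

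On the same scale the Mgp level in vehicle rats was 3.94 to 7.46 in osteoblasts with a median of 5.88, 4.25 to 7.88 in lining cells with a median of 5.79, and 5.29 to 11.81 in osteocytes with a median of 8.44. The osteocyte range was the widest, with an SD of 1.62 against 0.71 in osteoblasts and 0.84 in lining cells. Osteocytes had the highest mean on 8 of 8 days. The osteoblast mean was 6.29-fold and the lining cell mean 6.26-fold below that of osteocytes. Osteoblasts and lining cells differed by -0.01 (SE 0.24, adjusted p = 0.987), and the sign of that difference depended on the normalization: it was 0.51 with the values as deposited (adjusted p = 0.0451) and 0.19 with arrays centred on their median.

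The labelled cell types were set against their defining genes in the same vehicle fit. Dmp1 and Mepe, matrix proteins of osteocytes, were lower in osteoblasts than in osteocytes by a log2 difference of -3.77 and -5.20. Col1a1, the main collagen of bone matrix, was higher in osteoblasts than in lining cells by 1.58 but lower in osteoblasts than in osteocytes by -1.14. For alkaline phosphatase, Alpl, the osteoblast minus osteocyte difference was -0.96, and for the marker Ibsp it was -1.99. Between osteoblasts and lining cells Alpl differed by -0.24 and Ibsp by 0.25, and neither passed (limma, adjusted p = 0.0566 and 0.0771). The sclerostin gene Sost and the markers Phex and Pdpn differed less between osteoblasts and osteocytes than Dmp1 and Mepe, by -0.39, -0.86 and -1.04. The osteoblast transcription factors Sp7 and Runx2 had no probe set listed for them alone.

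All levels from here on are log2 of the deposited values, without further normalization. Over the 8 days the vehicle level of Bglap differed in each cell type (limma F test, adjusted p = 7.85e-07 in osteoblasts, 4.91e-06 in lining cells and 0.00213 in osteocytes). This was the case for 82.2%, 59.9% and 68.6% of all genes in the same tests. In osteoblasts of vehicle rats the Bglap level was 11.93, 11.96, 12.01, 12.06 and 12.06 on day 8, and 9.31, 9.88, 9.93, 10.08 and 10.50 on day 309. The day 8 arrays lay above every other vehicle osteoblast array. For Mgp the vehicle level differed over days in osteoblasts (adjusted p = 0.00342), with a mean of 7.44 ± 0.40 (SD, n = 5) on day 8 and 5.44 ± 0.74 on day 309. In lining cells and osteocytes the test for Mgp was not passed (adjusted p = 0.200 and 0.194).

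**Figure D1:**
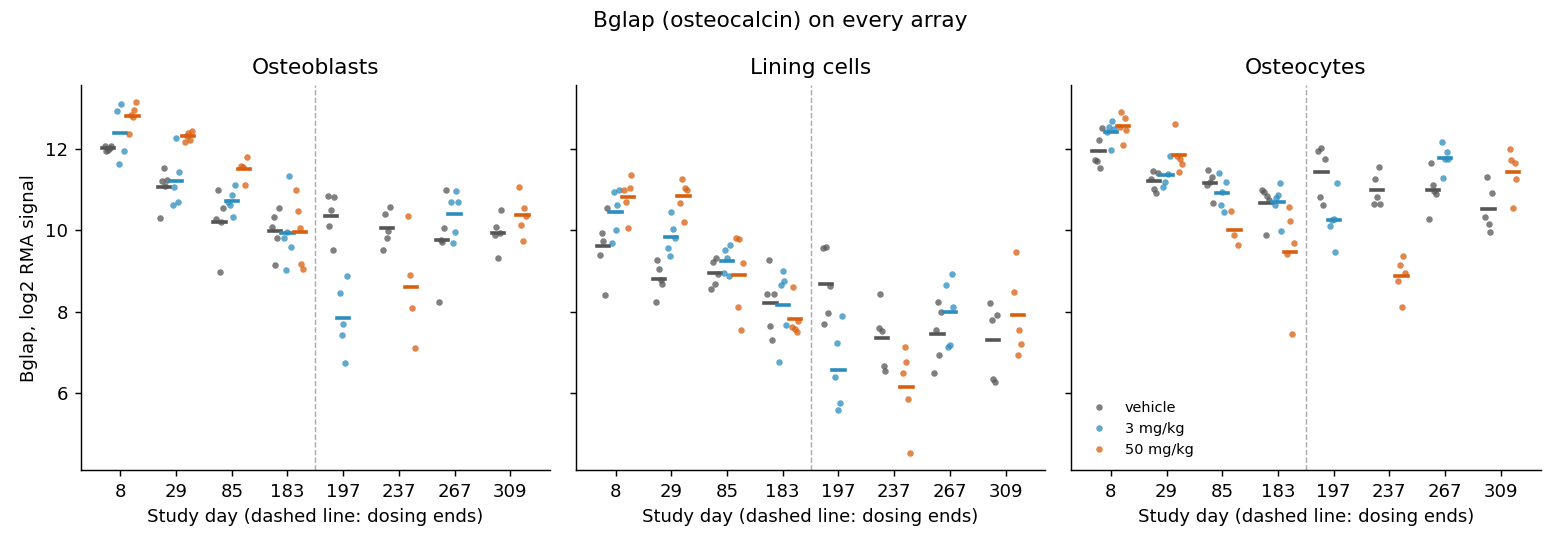
Bglap level (log2 intensity, vertical axis) by day (horizontal axis, evenly spaced) in osteoblasts, lining cells and osteocytes, with 1 point per array and the group mean as a bar, for vehicle, 3 mg/kg and 50 mg/kg of the antibody. The 50 mg/kg arrays lie above all vehicle arrays on days 8, 29 and 85 in osteoblasts and on day 29 in lining cells, and the 3 mg/kg arrays lie below all vehicle arrays on day 197 in osteoblasts.

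At 50 mg/kg Bglap was called higher in osteoblasts on days 29 and 85 and in lining cells on day 29, and lower in osteocytes on days 85 and 183. At this dose 5 of the 12 comparisons with vehicle during dosing passed the test, 3 higher and 2 lower. With both doses averaged, 0 of 12 limma comparisons passed for each gene, with an unadjusted p under 0.05 in 7 for Bglap and 2 for Mgp. On days 8, 29, 85 and 183 the share of all genes called in those comparisons was 3.64%, 15%, 1.76% and 3.29% in osteoblasts, 0.31%, 0.0431%, 0.0776% and 0.0517% in lining cells, and 0.287%, 0.211%, 6.3% and 2.06% in osteocytes. At 3 mg/kg 0 of 12 passed for each gene in limma, with an unadjusted p under 0.05 in 1 comparison for Bglap and 0 for Mgp. Few genes were called at that dose: 0%, 0.0701%, 0.0876% and 0.605% in osteoblasts on the same days, 0.0345% in lining cells on day 85 and 0% on the others, and 0.00843% and 1.46% in osteocytes on days 8 and 85 and 0% on the others. The comparisons of both doses with vehicle on 1 day share the vehicle arrays. A lower or higher level in a capture may reflect the number of cells of a type in it or the RNA per cell, which cannot be told apart.

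In osteoblasts on day 29 the Bglap level was 10.30, 11.07, 11.19, 11.24 and 11.52 in vehicle, and 12.16, 12.21, 12.31, 12.39 and 12.44 at 50 mg/kg. The groups did not overlap, and the treated arrays spanned a narrower range than the vehicle arrays. Bglap rose 2.36-fold (log2 difference 1.24 with an SE of 0.38, limma adjusted p = 0.0110). In that comparison 28.4% of all genes were called, in either direction. At 3 mg/kg the level was 10.62, 10.69, 11.06, 11.41 and 12.27, within the vehicle range for 4 of the 5 arrays (difference 0.15, adjusted p = 0.930).

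On day 85 the osteoblast level was 8.98, 10.21, 10.27, 10.55 and 10.98 in vehicle, and 11.10, 11.55, 11.57 and 11.80 in the 4 arrays at 50 mg/kg. The groups again did not overlap. Bglap rose 2.47-fold (1.31 ± 0.40; adjusted p = 0.0438, 4.47% of all genes called). The call ended without vehicle replicate 1, 3 or 4, or without 50 mg/kg replicate 1, 2 or 4, with values of 1.0002 to 1.32, and under each alternative setting tried, so it lay at the edge of the threshold.

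On day 8 the osteoblast level was 11.93 to 12.06 in vehicle, and 12.35, 12.77, 12.83, 12.94 and 13.13 at 50 mg/kg. The groups did not overlap, with a difference of 0.80 that missed the threshold after adjustment (adjusted p = 0.197, 8.19% of all genes called). On day 183 the level was 9.14, 9.80, 10.09, 10.32 and 10.54 in vehicle and 9.05, 9.17, 10.06, 10.46 and 10.99 at 50 mg/kg. The groups overlapped over most of their range and the difference was -0.03 (95% interval -0.78 to 0.71).

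In lining cells on day 29 the Bglap level was 8.24, 8.69, 8.79, 9.05 and 9.26 in vehicle, and 10.21, 10.66, 10.98, 11.04 and 11.25 at 50 mg/kg. The 3 mg/kg arrays, at 9.37, 9.56, 9.81, 10.02 and 10.44, lay above every vehicle array and mostly below the 50 mg/kg arrays. The rise at 50 mg/kg was 4.06-fold (2.02 ± 0.45; adjusted p = 0.0142), and 0.207% of all genes tested passed in that comparison. The difference at 3 mg/kg was 1.03 and did not pass (adjusted p = 0.769). The call at 50 mg/kg ended without vehicle replicate 1 or 50 mg/kg replicate 2 or 4, with values of 1.88 to 1.97.

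On day 8 the lining cell level was 8.41, 9.38, 9.74, 9.94 and 10.53 in vehicle and 10.06, 10.69, 10.97, 11.04 and 11.36 at 50 mg/kg (difference 1.22, adjusted p = 0.200, 0.621% called). By day 85 the treated arrays had spread to both sides of vehicle, at 7.55, 8.11, 9.20, 9.79 and 9.81 against 8.57 to 9.31, with a difference of -0.05. On day 183 the difference was -0.41, which also did not pass. The shares of all genes called were 0.983% and 1% on these days.

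In osteocytes the Bglap level on day 85 was 10.67, 11.12, 11.17, 11.31 and 11.49 in vehicle and 9.64, 9.88 and 10.47 in the 3 arrays at 50 mg/kg. All 3 treated arrays lay below all vehicle arrays. Bglap fell 2.23-fold (-1.16 ± 0.36; adjusted p = 0.0261, 10.1% of all genes called). The call ended without vehicle replicate 2 or 50 mg/kg replicate 2 or 3 (-1.10 to -0.98) and in a fit of the compared groups alone.

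On day 183 the osteocyte level was 9.89, 10.74, 10.83, 10.93 and 10.99 in vehicle and 7.45, 9.41, 9.67, 10.21 and 10.56 at 50 mg/kg. The ranges overlapped, and 1 treated array stood well below the other 4. Bglap fell 2.32-fold (-1.21 ± 0.31; adjusted p = 0.00702, 6.38% called). Without that array, 50 mg/kg replicate 4, the difference was -0.71 and the call ended. On day 8 the level was 11.52, 11.69, 11.72, 12.20 and 12.50 in vehicle and 12.08, 12.46, 12.53, 12.75 and 12.91 at 50 mg/kg, a difference of 0.61 with overlapping groups (adjusted p = 0.411, 0.928% called). On day 29 the difference was 0.63 (adjusted p = 0.257, 6.5% called).

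After the end of dosing Bglap was lower than in vehicle in 5 of 6 comparisons at the earlier sampling day of each dose, and in 0 of 6 at the later day. The sixth, lining cells after 50 mg/kg, did not pass. Of the 12 comparisons after dosing 1 was higher. In osteoblasts on day 197, after 3 mg/kg, the level was 9.50, 10.10, 10.50, 10.82 and 10.83 in vehicle and 6.75, 7.42, 7.70, 8.46 and 8.87 in treated rats. Every treated array lay below every vehicle array. Bglap fell 5.71-fold (-2.51 ± 0.38; adjusted p = 1.17e-05) in a comparison in which 0.0789% of all genes passed, and this call was kept without any 1 array and under each setting tried.

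In lining cells on day 197 the level was 7.69, 7.97, 8.64, 9.57 and 9.58 in vehicle and 5.60, 5.77, 6.41, 7.24 and 7.89 after 3 mg/kg, overlapping by 1 array. Bglap fell 4.32-fold (-2.11 ± 0.45; adjusted p = 0.0270, 0.0603% called). In osteocytes it was 10.63, 10.81, 11.73, 11.95 and 12.02 in vehicle and 9.46, 10.10, 10.26, 10.28 and 11.15 after treatment, and fell 2.26-fold (-1.18 ± 0.31; adjusted p = 0.0333, 1.11% called). The highest treated array lay above 2 of the vehicle arrays. The lining cell call ended without vehicle replicate 1, 3 or 5 or 3 mg/kg replicate 1, 3 or 4 (-2.12 to -1.86), and the osteocyte call without vehicle replicate 1, 3 or 5 or 3 mg/kg replicate 1, 2, 3 or 4 (-1.18 to -0.98). Both calls also ended after quantile normalization, with the signal range as a covariate and in a fit of the compared groups alone.

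On day 237, after 50 mg/kg, the osteocyte level was 10.64, 10.64, 10.80, 11.25 and 11.56 in vehicle and 8.13, 8.75, 8.95, 9.15 and 9.38 in treated rats. The groups were more than 1 log2 unit apart. Bglap fell 4.31-fold (-2.11 ± 0.31; adjusted p = 3.07e-07, 13.2% of all genes called), and the call was kept without any 1 array and under each setting tried. In osteoblasts the level was 9.52, 9.81, 9.99, 10.39 and 10.57 in vehicle and 7.12, 8.09, 8.89 and 10.34 in the 4 treated arrays, and fell 2.72-fold (-1.45 ± 0.40; adjusted p = 0.0133, 10.7% called). One treated array lay inside the vehicle range, and the call ended without 50 mg/kg replicate 3 (-1.27) or replicate 4 (-0.95), and with the signal range (-1.28) or the cartilage markers (-1.32) as a covariate. In lining cells the level was 6.55, 6.66, 7.52, 7.61 and 8.43 in vehicle and 4.55, 5.87, 6.50, 6.77 and 7.13 in treated rats, a difference of -1.19 that did not pass (adjusted p = 0.165, 1.45% called).

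On day 267, after 3 mg/kg, the Bglap differences were 0.65 in osteoblasts, 0.55 in lining cells and 0.79 in osteocytes, with no call (adjusted p = 0.998, 0.651 and 0.153), where 0%, 1.08% and 3.63% of all genes passed. On day 309, after 50 mg/kg, the osteocyte level was 9.95, 10.15, 10.33, 10.91 and 11.31 in vehicle and 10.54, 11.26, 11.66, 11.71 and 11.999 in treated rats. Bglap was 1.87-fold higher there (0.90 ± 0.31; adjusted p = 0.0355, 16.4% called), with overlapping groups. The call ended without vehicle replicate 1, 3 or 4 or 50 mg/kg replicate 1, 2, 4 or 5 (0.76 to 0.95) and in a fit of the compared groups alone. The differences in osteoblasts and lining cells, 0.42 and 0.62, did not pass, where 10.5% and 0.405% of all genes did.

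The change of the response between the earlier and the later day was tested directly. The Bglap difference from vehicle rose from day 197 to day 267 by 3.16 ± 0.54 in osteoblasts (limma, adjusted p = 0.000450, 0.0613% of all genes called), by 2.66 in lining cells (adjusted p = 0.0192, 1.19%) and by 1.97 in osteocytes (adjusted p = 0.00131, 10.9%). From day 237 to day 309 it rose by 3.01 in osteocytes (adjusted p = 1.59e-05, 2.81%) and by 1.87 in osteoblasts (adjusted p = 0.00853, 25.9%). In lining cells the change was 1.81, with an adjusted p of 0.9998 and 0% of all genes called. The osteoblast call after 50 mg/kg ended without 50 mg/kg replicate 4 of day 237 (1.37), after quantile normalization (1.40) and with the signal range (1.45) or the cartilage markers (1.65) as a covariate. The lining cell call after 3 mg/kg ended without vehicle replicate 1 of day 267 (2.42), after quantile normalization (2.30) and with the signal range covariate (2.25). Across the dosing days at 50 mg/kg the Bglap response differed in osteocytes (F test, adjusted p = 0.00135, 4.85% of all genes) and not at the threshold in osteoblasts (adjusted p = 0.130, 31.1%) or lining cells (adjusted p = 0.0989, 0.422%). In osteocytes it was lower on day 183 than on day 8 by -1.83 (adjusted p = 0.00746, 3.51%), a call that ended without 50 mg/kg replicate 4 of day 183 (-1.32) and with the vessel markers as a covariate (-1.49, adjusted p = 0.599).

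Set in order, the 20 Bglap group means of a cell type formed a near-continuous scale. They ran from 12.80 (50 mg/kg, day 8) to 7.84 (3 mg/kg, day 197) in osteoblasts, from 10.83 (50 mg/kg, day 29) to 6.17 (50 mg/kg, day 237) in lining cells, and from 12.54 (50 mg/kg, day 8) to 8.87 (50 mg/kg, day 237) in osteocytes. Of the 19 steps between neighbours in that order, 2 in osteoblasts, 1 in lining cells and 1 in osteocytes were larger than the larger SD of the neighbouring groups. The lowest group of each cell type had been sampled after the end of dosing.

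**Figure D2:**
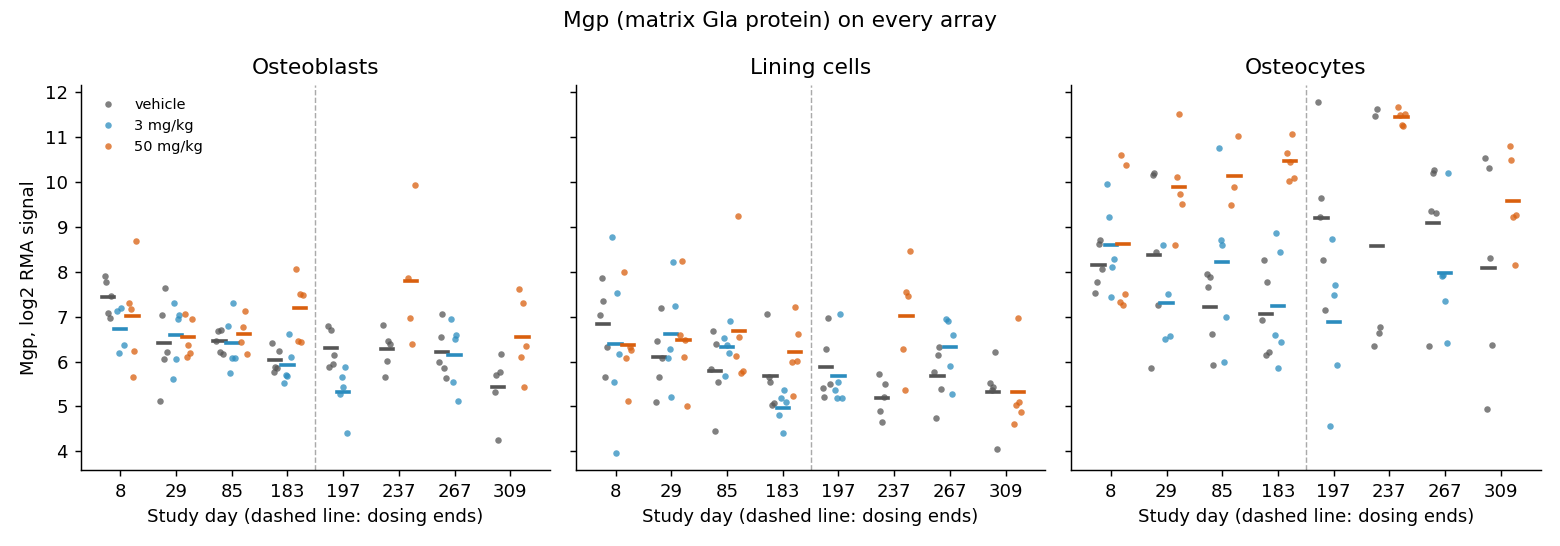
Mgp level (log2 intensity, vertical axis) by day (horizontal axis, evenly spaced) in osteoblasts, lining cells and osteocytes, with 1 point per array and the group mean as a bar, for the same treatments. In osteocytes the 50 mg/kg arrays of day 237 lie between 11.25 and 11.67, while the vehicle arrays of that day lie between 6.35 and 11.63.

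Mgp was higher in osteocyte captures of rats given 50 mg/kg on days 183 and 237, and in osteoblast captures on day 237. Of the 12 comparisons at 50 mg/kg during dosing 1 passed for Mgp, and of the 12 comparisons after dosing 2 passed, all 3 of them higher. The share of all genes called was 6.38% in osteocytes on day 183, 13.2% in osteocytes on day 237 and 10.7% in osteoblasts on day 237. In osteocytes on day 183 the Mgp level was 6.14, 6.22, 6.92, 7.76 and 8.27 in vehicle and 10.02, 10.09, 10.46, 10.65 and 11.08 at 50 mg/kg. The groups were separated by more than 1 log2 unit. Mgp rose 10.6-fold (3.40 ± 0.89; limma, adjusted p = 0.00795), a call that was kept without any 1 array. At 3 mg/kg on that day the level was 5.85 to 8.87 and the difference 0.18.

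On day 85 the osteocyte level was 5.93, 6.61, 7.67, 7.88 and 7.96 in vehicle and 9.49, 9.89 and 11.03 in the 3 arrays at 50 mg/kg. The groups did not overlap, and the 7.59-fold difference lay at the edge of the threshold (2.92 ± 1.03; adjusted p = 0.0520). It passed without vehicle replicate 1 (3.11) or 3 (3.09), and in a fit of the compared groups alone (adjusted p = 0.0120). On day 29 the level was 5.85, 7.27, 8.43, 10.16 and 10.21 in vehicle and 8.60, 9.52, 9.74, 10.12 and 11.52 at 50 mg/kg, a difference of 1.52 with overlap (adjusted p = 0.363). On day 8 the difference was 0.47.

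On day 237 the osteocyte Mgp level was 6.35, 6.63, 6.76, 11.48 and 11.63 in vehicle, which splits into 3 low and 2 high arrays. All 5 arrays after 50 mg/kg were high, at 11.25, 11.26, 11.50, 11.52 and 11.67. The mean difference was 7.32-fold (2.87 ± 0.89; adjusted p = 0.0192). The call ended without vehicle replicate 1, 4 or 5 (2.32 to 2.42) and in a fit of the compared groups alone (adjusted p = 0.0642). On day 309 the difference was 1.49 (adjusted p = 0.258), with vehicle at 4.95, 6.36, 8.31, 10.32 and 10.54 and treated arrays at 8.16, 9.23, 9.26, 10.49 and 10.80.

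After 3 mg/kg the osteocyte level on day 197 was 7.14, 8.26, 9.22, 9.64 and 11.77 in vehicle and 4.57, 5.92, 7.48, 7.70 and 8.73 in treated rats. The difference of -2.32 did not pass (adjusted p = 0.197). On day 267 it was -1.14.

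In osteoblasts Mgp on day 237 was 5.66, 6.02, 6.38, 6.47 and 6.82 in vehicle and 6.40, 6.98, 7.87 and 9.93 in the 4 arrays after 50 mg/kg. It rose 2.87-fold (1.52 ± 0.44; adjusted p = 0.0176), but the call ended without 50 mg/kg replicate 4 (0.81) or vehicle replicate 2 (1.37). It also ended with the vessel markers (0.73, adjusted p = 0.262) or the cartilage markers (1.47, adjusted p = 0.0723) as a covariate. In these osteoblast captures the smooth muscle and pericyte marker mean was 3.58 in vehicle and 3.96 after 50 mg/kg, the endothelial mean 5.37 and 5.52, and the cartilage mean 3.33 and 3.59, with 0 of 8, 1 of 10 and 1 of 4 genes tested called higher and 1 endothelial gene called lower. Their part in the difference was not tested further. The treated replicate 4 had the highest Mgp and also the lowest Bglap, 7.12, of its group. On day 183 the level was 5.76, 5.86, 5.88, 6.24 and 6.41 in vehicle and 6.44, 6.45, 7.48, 7.51 and 8.06 at 50 mg/kg, groups that did not overlap (difference 1.16, adjusted p = 0.0910, 4.43% called). On day 309 the difference was 1.11 (adjusted p = 0.0690), and it passed without vehicle replicate 5 (1.30) or 50 mg/kg replicate 4 (1.40).

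In lining cells Mgp on day 237 was 4.65, 4.90, 5.21, 5.50 and 5.71 in vehicle and 5.37, 6.27, 7.47, 7.55 and 8.47 after 50 mg/kg. Only 1 treated array fell within the vehicle range, and the 3.56-fold difference did not pass (1.83 ± 0.58, limma adjusted p = 0.0776). It passed without 50 mg/kg replicate 2 (2.25) and in 3 of the other settings. With the vessel markers as a covariate the difference was 0.70 (adjusted p = 0.464), and with the cartilage markers 1.83 (adjusted p = 0.104). In these lining cell captures the endothelial mean was 5.00 in vehicle and 5.17 after 50 mg/kg, and the smooth muscle and pericyte mean 3.31 and 3.53. Their part in the difference was not tested further. The remaining Mgp comparisons in osteoblasts and lining cells had overlapping groups, apart from osteoblasts on day 197, at 5.88, 5.95, 6.14, 6.71 and 6.78 in vehicle and 4.41, 5.27, 5.42, 5.65 and 5.88 after 3 mg/kg, with a difference of -0.97. The 20 Mgp group means ran from 7.79 to 5.33 in osteoblasts, from 7.03 to 4.97 in lining cells and from 11.44 to 6.88 in osteocytes, and the highest mean of each cell type was that of 50 mg/kg on day 237. Of the 19 steps in each order, 1 in osteocytes and 0 in both surface cell types exceeded the larger SD of its neighbours.

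Because smooth muscle cells and chondrocytes are known to make Mgp, markers of vessels and cartilage were read in the same osteocyte arrays. Of 12 endothelial genes 11 were measured, and of 10 smooth muscle and pericyte genes all 10 were. The mean log2 level of the endothelial genes was 3.93 in vehicle and 4.56 at 50 mg/kg on day 85, 3.95 and 4.66 on day 183, and 4.15 and 4.83 on day 237. The summed endothelial intensity ranged from 255 to 288 in vehicle and from 336 to 564 at 50 mg/kg on day 183, without overlap. On that day 7 of 11 endothelial genes tested and 3 of 7 smooth muscle and pericyte genes tested were called higher, and 0 lower, where 6.38% of all genes passed in either direction. On day 85 the counts were 4 of 11 and 4 of 7, and on day 237 they were 7 of 11 and 4 of 7. Values of the array summary method have no true 0, so no marker reads as absent: the lowest value deposited was 2.94 in linear units.

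With the mean of the vessel markers as a covariate, the Mgp difference in osteocytes was 1.66 on day 85 (limma, adjusted p = 0.577). It was 2.001 on day 183 (adjusted p = 0.712) and 1.34 on day 237 (adjusted p = 0.660), and none of these values was a call. The covariate itself moved with the dose, and the part of vessel cells in the Mgp difference was not tested. Among all 97 osteocyte arrays, the 13 at 50 mg/kg on days 85, 183 and 237 had a vessel marker mean of 4.17 to 4.67 and Mgp from 9.49 to 11.67. The other 84 had a vessel marker mean of 3.52 to 4.18, so the ranges met at their edge. Vehicle osteocyte arrays reached equally high Mgp, up to 11.77, with vessel marker means of 3.55 to 3.94.

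Of 12 cartilage genes 9 were measured, and on days 85, 183 and 237 0 of the 7 tested were called at 50 mg/kg in osteocytes. The 9 osteocyte arrays with the highest cartilage marker mean, 4.04 to 4.60, all had Mgp between 10.2 and 11.8. They included the 2 high vehicle arrays of day 237, with cartilage means of 4.42 and 4.21. The vehicle array of day 197 with Mgp at 11.77 was another, with a cartilage mean of 4.60. Treated arrays were among them too: 50 mg/kg replicates 1 and 2 of day 237, with cartilage means of 4.48 and 4.46. The other 50 mg/kg arrays of that day had means of 3.03 to 3.30. The rest were 50 mg/kg replicate 1 of day 183 and replicate 5 of day 8, 3 mg/kg replicate 1 of day 85, and vehicle replicate 3 of day 29. Next in the order came 50 mg/kg replicate 3 of day 29 (cartilage mean 3.97, Mgp 11.52) and 3 mg/kg replicate 1 of day 29 (3.87, Mgp 8.60). The Mgp range therefore depended on where the order was cut. With the cartilage mean as a covariate the Mgp difference was 3.24 on day 85 (adjusted p = 0.00150), 2.50 on day 183 (adjusted p = 0.00725) and 2.41 on day 237 (adjusted p = 0.00578), each a call. The Bglap difference on day 237 stayed a call with the vessel covariate (-1.80, adjusted p = 0.0119), while those of day 85 (-0.90) and day 183 (-0.94) did not.

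**Figure D3:**
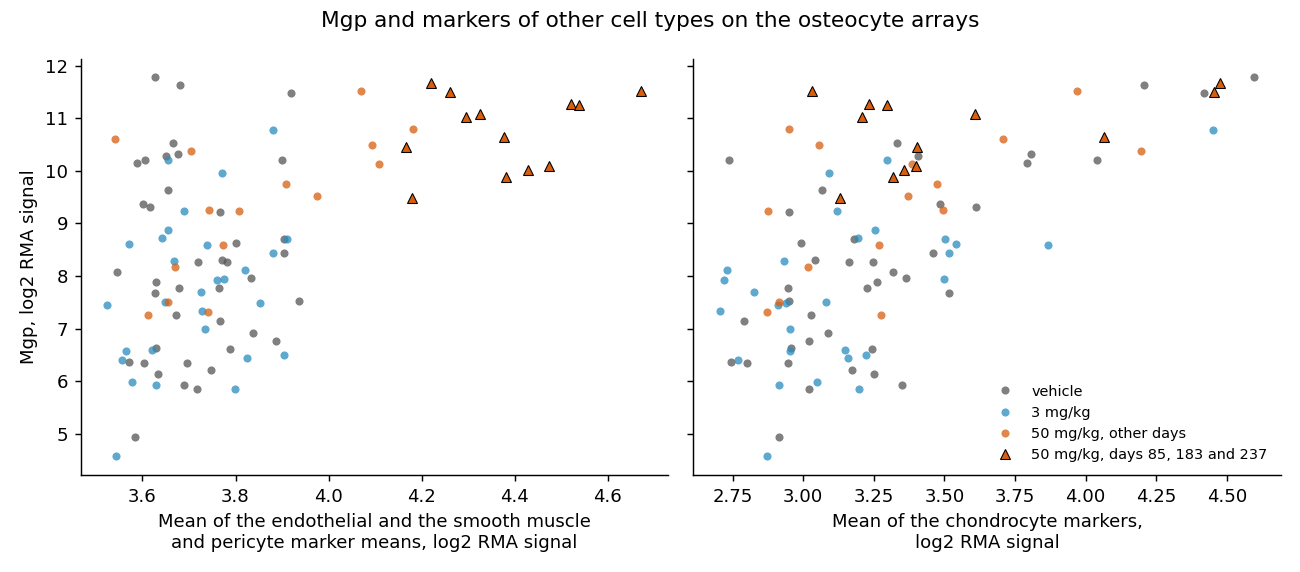
Mgp level (log2 intensity, vertical axis) in each osteocyte array against the mean log2 level of the vessel markers and of the cartilage markers (horizontal axes), with 1 point per array. The 13 arrays at 50 mg/kg of days 85, 183 and 237 sit at vessel means of 4.17 to 4.67, and the 9 arrays with cartilage means of 4.04 to 4.60 all have Mgp between 10.2 and 11.8.

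The doses were also compared with each other, 50 minus 3 mg/kg over the 4 dosing days. In osteocytes Mgp was higher at 50 mg/kg by 1.94 ± 0.47 in the mean of those days (limma, adjusted p = 0.00151), where 15% of all genes passed, and by 3.22 on day 183 (adjusted p = 0.0259, 2.8%). The day 183 call ended without 3 mg/kg replicate 1, 3 or 5 or 50 mg/kg replicate 4 or 5 (2.87 to 3.31), and both calls ended with the vessel covariate (1.19 and 1.89). Bglap in osteocytes was lower at 50 mg/kg on day 183 by -1.22 (adjusted p = 0.0139), a call that ended without 50 mg/kg replicate 4 (-0.72), with the vessel covariate (-0.96, adjusted p = 0.703) and in a fit of the compared groups alone (adjusted p = 0.0853). In osteoblasts the mean Bglap difference between doses was 0.57 (adjusted p = 0.106, 2.53%), which did not pass.

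The response to 50 mg/kg during dosing was tested between cell types in a fit of all arrays. Bglap responded more upward in osteoblasts than in osteocytes by 1.11 ± 0.29 (adjusted p = 0.00339, 12.1% of all genes called) and more in lining cells than in osteocytes by 0.98 (adjusted p = 0.0129, 9.65%). Mgp went the other way, with osteoblasts below osteocytes by -1.82 ± 0.49 (adjusted p = 0.00494) and lining cells below osteocytes by -1.74 (adjusted p = 0.00824). Between osteoblasts and lining cells the differences were 0.13 for Bglap and -0.08 for Mgp, with no call in a comparison that 0.016% of all genes passed. The largest of these gaps for Bglap in a single day was on day 85, at 2.46 between osteoblasts and osteocytes (adjusted p = 0.00639, 4.74%). Without day 85 none of the 4 passed (0.66 and 0.94 for Bglap, -1.51 and -1.65 for Mgp), nor did both Mgp values without day 183 (-1.68 and -1.37) or the Bglap value of lining cells without day 29 (0.84). With both doses averaged 0 of the 6 comparisons passed in limma, where 0%, 3.57% and 2.67% of all genes did between osteoblasts and lining cells, osteoblasts and osteocytes, and lining cells and osteocytes.

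**Figure D4:**
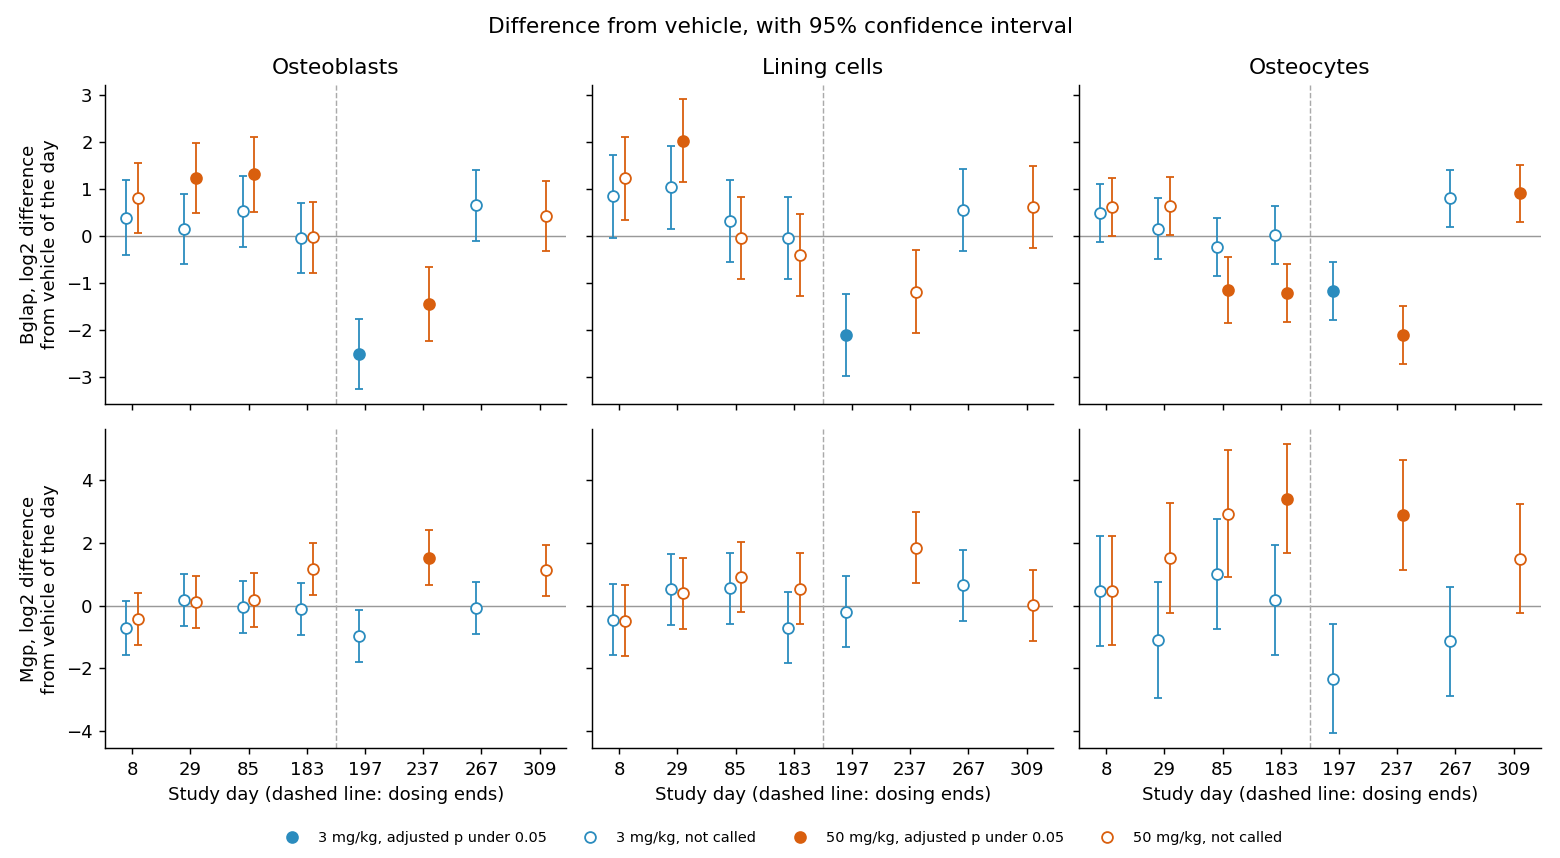
Difference from vehicle of the same day (log2, vertical axis; error bars are 95% confidence intervals, filled points adjusted p under 0.05) for Bglap and Mgp by day (horizontal axis) in each cell type, for 3 and 50 mg/kg. Bglap is lowest at -2.51 in osteoblasts on day 197 after 3 mg/kg, and Mgp is highest at 3.40 in osteocytes on day 183 at 50 mg/kg.

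No joint movement of the 2 transcripts was detected within groups. Their deviations from the group means correlated with Pearson's r of 0.04 in osteoblasts (97 arrays; Spearman's rho 0.08), -0.17 in lining cells (100 arrays; rho -0.15) and 0.01 in osteocytes (97 arrays; rho 0.02), and none passed a permutation test (adjusted p = 0.896, 0.267 and 0.896 over these 3 relations). Without the 2 arrays farthest from the Bglap median, r was 0.03, -0.14 and 0.05. The difference between the Bglap and Mgp responses was tested in each of 24 combinations of cell type and day by exact permutation, two-sided. After adjustment 0 passed, with 5 at an unadjusted p under 0.05. The tests after dosing could not give a p under 0.00794, so 1 of them alone could not pass after adjustment over the 24. The largest gap among these tests was in osteocytes on day 237, after 50 mg/kg. The Bglap response there lay -4.98 below that of Mgp (exact permutation p = 0.00794, the smallest that 5 against 5 arrays can give, adjusted p = 0.0879).

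The genes whose level was most like that of Bglap included both chains of type I collagen. Over the 60 group means, each centred on the mean of its cell type, Pearson's r with Bglap was 0.95 for Serpinf1, which encodes the secreted bone matrix protein PEDF, 0.92 for Col1a2, 0.90 for Col1a1 and Cthrc1, and 0.89 for Sparc, the matrix protein osteonectin. The median over all genes was 0.011 and the value for Mgp was 0.05. Over the 294 deviations from group means, which leave cell type, dose and day out, the order began with Col1a1 (0.81), Col1a2 (0.80), Serpinf1 (0.78), Sparc (0.75) and Cpe (0.72). All of these points share the arrays and their overall signal. In the promoters listed for Serpinf1 and Sparc neither motif was found, and in that of Col1a2 TATAAA begins 170 bases before the start while AACCACA was not found.

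These collagen genes followed Bglap in some comparisons and not in others. Col1a1 was lower in osteoblasts on day 197 after 3 mg/kg by -2.90 (adjusted p = 2.99e-06), higher in osteoblasts at 50 mg/kg on days 29 and 85 by 1.97 and 2.41, and lower in osteocytes on day 237 by -1.87 (adjusted p = 3.61e-05). In osteocytes on days 85 and 183, where Bglap fell, the Col1a1 differences were -0.22 and -0.36 with no call. The osteocyte matrix genes Dmp1 and Mepe rose there on day 183, by 2.17 (adjusted p = 1.40e-07) and 2.82 (adjusted p = 1.31e-06), in the same captures in which Bglap fell.

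The genes most like Mgp included genes known from vessels and from cartilage. Over the 60 group means r was 0.78 for Col3a1, 0.77 for Tm4sf1, 0.77 for Sparcl1, 0.76 for Cytl1 and 0.74 for Rgs5, a pericyte marker. Over the deviations from group means it was 0.69 for Cytl1, a cartilage cytokine, 0.50 for PCOLCE2, 0.46 for Col2a1, the collagen of cartilage, 0.44 for Chad and 0.40 for Sparcl1. Within osteocytes alone these deviations gave 0.79 for Cytl1, 0.69 for PCOLCE2 and Chad, and 0.61 for Col2a1.

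The other Gla proteins and the enzymes of the vitamin K cycle were read from a list of 22 genes, of which 17 were measured and 11 (osteoblasts), 10 (lining cells) and 12 (osteocytes) tested. On each dosing day at 50 mg/kg at most 1 member rose and at most 1 fell in any cell type, where 8.19%, 28.4%, 4.47% and 4.43% of all genes were called in osteoblasts on days 8, 29, 85 and 183 and between 0.928% and 10.1% in osteocytes. Gas6, a Gla-domain ligand of the TAM receptors, fell on day 8 at 50 mg/kg in osteoblasts (-1.09, adjusted p = 0.000938), lining cells (-1.01, adjusted p = 0.0412) and osteocytes (-1.49, adjusted p = 0.000167), and in osteoblasts on days 29 (-0.88) and 85 (-0.78). In osteocytes after dosing Gas6 was higher, by 1.07 on day 237 and 0.81 on day 309. Ggcx, the carboxylase that makes Gla, rose in osteoblasts on day 29 by 0.37 (adjusted p = 0.0305), and Vkorc1, the reductase that recycles vitamin K, rose there on day 8 by 0.71 (adjusted p = 0.0239). F10, coagulation factor X, was lower in osteoblasts on day 183 with both doses averaged by -0.49 (adjusted p = 0.0135).

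Of 20 regulators known to act on the osteocalcin gene, 17 were measured, and 12 (osteoblasts) and 13 (lining cells, osteocytes) were tested. In osteoblasts at 50 mg/kg 2 rose and 3 fell on day 29, and 2 rose on day 85, the days on which Bglap rose and on which 28.4% and 4.47% of all genes were called. In osteocytes 3 rose on day 29, 4 on day 85, 2 on day 183 and 4 on day 237, with 0 lower on these days, where 6.5%, 10.1%, 6.38% and 13.2% of all genes were called. These include the 3 days on which Bglap was called lower there. On day 85 the median over the 13 in osteocytes was 0.35, beside 0.02 over all genes tested. In lining cells 0 passed during dosing and 1 fell on day 237.

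Dlx3, a homeobox factor that binds the osteocalcin promoter, rose in osteocytes at 50 mg/kg on days 29 (1.28), 85 (1.31), 183 (1.18), 237 (2.11, adjusted p = 1.26e-09) and 309 (1.09), and in osteoblasts on day 29 (0.85). Twist1, which restrains RUNX2, rose in osteoblasts on day 29 by 1.56 (adjusted p = 0.000174) and on day 85 by 1.63 (adjusted p = 0.00110). Smad1, Lef1 and the glucocorticoid receptor Nr3c1 fell in osteoblasts on day 29, by -0.93, -0.89 and -0.80. Jund, an AP-1 subunit, rose in osteocytes on day 85 by 0.94 (adjusted p = 1.35e-05). Atf4, which activates the osteocalcin gene, differed from vehicle in osteoblasts by -0.41 to 0.56 over all comparisons, with calls on day 309 in osteoblasts (0.56) and osteocytes (-0.55). The vitamin D receptor Vdr was measured but stayed under the filter on low genes in each cell type.

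Of 20 genes that inhibit calcification or handle mineral, all 20 were measured and 15 (osteoblasts), 15 (lining cells) and 18 (osteocytes) tested. In osteoblasts at 50 mg/kg 2 rose and 3 fell on day 29, where 28.4% of all genes were called. In osteocytes 1 fell on day 8, 2 rose on day 29, 2 rose and 1 fell on day 85, and 3 rose on day 183, where 0.928%, 6.5%, 10.1% and 6.38% of all genes were called. After dosing 3 rose and 1 fell there on day 237 and 4 rose and 1 fell on day 309, beside 13.2% and 16.4% of all genes. Spp1, which encodes osteopontin, an inhibitor of mineral growth, fell in osteoblasts on days 8 (-1.63) and 29 (-1.11), in lining cells on day 85 (-1.44) and in osteocytes on day 85 (-1.38), and was higher in osteocytes on day 309 (1.36). Ankh, the pyrophosphate transporter, rose in osteocytes on days 29 (1.25), 183 (1.37, adjusted p = 1.46e-06) and 237 (1.29). Alpl, which removes pyrophosphate, rose in osteoblasts on days 29 (1.05) and 85 (0.77). With both doses averaged, Bmp2, a ligand that matrix Gla protein binds, fell in lining cells on day 8 by -0.91 (limma, adjusted p = 0.0430). In osteocytes Bmp2 rose at 50 mg/kg on days 183 (1.11), 237 (1.13) and 309 (1.23). Mgp was called higher there on the first and second of these days, and a relation between the 2 genes was not tested.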

How the data were processed

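Expression was measured on Affymetrix Rat 230_2 arrays from amplified RNA of laser-captured cells. Per the submitters' processing notes the values came from Affymetrix Expression Console, R 3.0.1, affy 1.38.1 and the RMA method, listed without an order. The authors deposited linear intensity values (2.94 to 28282) after RMA, a method that corrects background, quantile-normalizes and summarizes probes. The deposited arrays did not share 1 distribution. As deposited, the median difference over all genes tested in vehicle was 0.42 between osteoblasts and lining cells and 0.67 between osteoblasts and osteocytes. The signal range was 3.20 to 3.66 within vehicle osteoblasts of day 8. The reason was not tested. The log2 of each value was taken here, where the plan had assumed deposited log2 values. Probe sets were named through the platform annotation, with symbols updated by gene ID: of 31042, 20826 listed 1 gene, 436 several and 9780 none. A gene was read from its probe set with the highest mean, and genes above the array median in at least 5 arrays of a fit were tested (11412 in osteoblasts, 11600 in lining cells, 11859 in osteocytes). The number of arrays, not depth, limits precision. No 2 arrays held identical values; the highest correlation between 2 arrays was 0.9925.

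Groups came from the labels. limma 3.58.1 in R 4.3.3 was fitted per cell type with a mean for each group, over all arrays of a cell type so that groups share 1 estimate of the spread; responses between cell types came from 1 fit of all 294 arrays; the vehicle comparison used quantile-normalized values. P-values were adjusted by Benjamini and Hochberg over all genes tested, and called under 0.05. Intervals are 95% normal intervals of the estimate. Exact permutation tests went through every split of the compared arrays, and their p-values were adjusted with scipy 1.17.1. Beyond naming 5 animals per group the labels do not tie arrays to separate animals, so p-values measure the spread between arrays, which may be technical in part. The fits were tested on simulated data made from these arrays: of 50 genes shifted by 1 log2 unit, 44 were recovered for osteocytes at 50 mg/kg on day 183, 42 for osteoblasts after 3 mg/kg on day 197 and 47 for osteoblasts with both doses on day 8. Of 50 shifted by 0.5, 10, 14 and 20 were recovered, and 4.46%, 4.38% and 6.78% of calls were false. The genes were drawn at random and their noise independently, so these recoveries do not describe Mgp in osteocytes, with its median group SD of 1.198.

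The members and the gene lists were chosen with earlier results of these data known. Named genes were, besides the members, the 5 most correlated genes of each, the fixed markers, Ggcx, Vkorc1, Runx2, Sp7, Vdr and Atf4, and per list up to 3 called members per cell type and direction with both doses averaged. Alternatives were quantile normalization, no filter, the mean of probe sets, array weights, the signal range as a covariate, the compared groups alone and each array left out; the vessel and cartilage marker covariates, and the time and 50 mg/kg contrasts under each setting, were added after seeing the data. Promoters came from RefSeq (GRCr8) and covered Bglap, Serpinf1, Sparc and Col1a2.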

Additional observations from a re-analysis of the deposited data

Results flagged for a closer look

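In 6 of 118 sets of values (2 genes in each of 59 groups of 4 or 5 arrays), 1 array stood far from the rest of its group in level, where chance alone gives about 1 in 20, or 5.9. For Bglap these were the highest array in lining cells at 50 mg/kg on day 183 (8.61, the next at 7.76) and the lowest in osteocytes of vehicle rats on day 183 (9.89, the next at 10.74). For Mgp they were the highest arrays of 3 lining cell groups, those of day 85 at 50 mg/kg (9.25), day 197 after 3 mg/kg (7.07) and day 309 after 50 mg/kg (6.97), and the lowest in osteocytes of vehicle rats on day 267 (6.34).

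The response of Bglap differed between days by a test of the difference itself. From day 197 to day 267 after 3 mg/kg it rose by 3.16 in osteoblasts, 2.66 in lining cells and 1.97 in osteocytes. From day 237 to day 309 after 50 mg/kg it rose by 1.87 in osteoblasts and 3.01 in osteocytes. At 50 mg/kg in osteocytes the response on day 183 minus that on day 8 was -1.83. Under other settings 3 of these calls ended: 1.87 in osteoblasts (1.40 to 1.65 with quantile normalization, the signal range or the cartilage markers), 2.66 in lining cells (2.25 to 2.30 with quantile normalization or the signal range) and -1.83 in osteocytes (-1.49 with the vessel markers).

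The response to 50 mg/kg during dosing differed between cell types for both genes. For Bglap the difference was 1.11 between osteoblasts and osteocytes and 0.98 between lining cells and osteocytes. For Mgp the same differences were -1.82 and -1.74. Without day 85 none of the 4 was a call. Vessel markers in osteocyte captures rose on the same days as Mgp, and their part in these differences was not tested.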

How the results depend on the processing

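Of the results under another setting, 1139 kept their direction and their side of the threshold, 46 changed sign, 44 stopped being calls and 19 became calls; with 1 array left out the numbers were 2032, 90, 49 and 7. Each value that changed sign had not been a call. Some of the kept results were fixed in advance. Each gene had 1 probe set, and within a cell type its estimate could not move with the mean of probe sets or without the filter. The 24 tests of unequal response were not rerun for the mean of probe sets and were counted as kept. Groups of 3 to 5 arrays, and a median group SD of 1.198 log2 units for Mgp in osteocytes, limit precision. The Bglap calls in osteoblasts on days 29 and 197 and in osteocytes on day 237 were kept under each setting and without any 1 array. Why a value changed was not tested. Values below are log2 differences from vehicle unless the brackets name another comparison. No paired analysis was possible because the labels give no replicate numbers, and the numbers used here only name arrays in accession order.

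After quantile normalization the sign turned for Mgp in osteoblasts -0.020 (both doses, day 85), Bglap in osteoblasts -0.072 (50 minus 3 mg/kg, day 183), Bglap in osteocytes -0.0013 (3 mg/kg, day 29), -0.16 (3 mg/kg, day 183). After quantile normalization the call ended for Bglap in osteoblasts 1.24 (50 mg/kg, day 85), 1.40 (50 mg/kg, day 309 minus 237), Bglap in lining cells -1.91 (3 mg/kg, day 197), 2.30 (3 mg/kg, day 267 minus 197), Bglap in osteocytes -1.12 (3 mg/kg, day 197). After quantile normalization a call was gained for Bglap in lining cells 1.59 (both doses, day 29), Mgp in osteocytes 2.89 (50 mg/kg, day 85), Bglap response of lining cells minus osteocytes, both doses 0.75. Without the filter the call ended for Bglap in osteoblasts 1.31 (50 mg/kg, day 85). With the mean of probe sets the sign turned for Mgp osteoblasts minus lining cells in vehicle 0.0086. With the mean of probe sets the call ended for Bglap in osteoblasts 1.31 (50 mg/kg, day 85). With array weights the sign turned for Bglap in osteoblasts 0.062 (both doses, day 183), -0.11 (3 mg/kg, day 29), Mgp in osteoblasts -0.099 (3 mg/kg, day 29), Bglap in osteoblasts 0.040 (3 mg/kg, day 183), Mgp in osteoblasts 0.10 (3 mg/kg, day 267), Bglap in osteoblasts 0.084 (50 mg/kg, day 183), Bglap in osteocytes -0.13 (3 mg/kg, day 183). With array weights the call ended for Bglap in osteoblasts 1.32 (50 mg/kg, day 85), Bglap in osteocytes -1.15 (50 mg/kg, day 85). With array weights a call was gained for Mgp in lining cells 1.76 (50 mg/kg, day 237), Bglap in lining cells -1.94 (50 mg/kg, day 183 minus 8), Bglap in osteocytes -1.31 (both doses, day 183 minus 8). With the signal range covariate the sign turned for Mgp in osteoblasts -0.0055 (both doses, day 85), Bglap in osteoblasts -0.034 (50 minus 3 mg/kg, day 183), Bglap in osteocytes -0.038 (3 mg/kg, day 183), Mgp osteoblasts minus lining cells in vehicle 0.026. With the signal range covariate the call ended for Bglap in osteoblasts 1.17 (50 mg/kg, day 85), -1.28 (50 mg/kg, day 237), 1.45 (50 mg/kg, day 309 minus 237), Bglap in lining cells -1.91 (3 mg/kg, day 197), 2.25 (3 mg/kg, day 267 minus 197), Bglap in osteocytes -1.05 (3 mg/kg, day 197). With the signal range covariate a call was gained for Mgp in lining cells 2.002 (50 mg/kg, day 237), Mgp in osteocytes 2.95 (50 mg/kg, day 85). With the cartilage marker covariate the sign turned for Bglap in lining cells 0.060 (3 mg/kg, day 183), 0.075 (50 mg/kg, day 85), Mgp in osteocytes -0.30 (50 mg/kg, day 8). With the cartilage marker covariate the call ended for Bglap in osteoblasts 1.19 (50 mg/kg, day 85), -1.32 (50 mg/kg, day 237), Mgp in osteoblasts 1.47 (50 mg/kg, day 237), Bglap in osteoblasts 1.65 (50 mg/kg, day 309 minus 237). With the cartilage marker covariate a call was gained for Bglap in lining cells 1.70 (both doses, day 29), Mgp in osteocytes 1.93 (both doses, day 85), 3.24 (50 mg/kg, day 85). With the vessel marker covariate the sign turned for Mgp in osteoblasts 0.067 (both doses, day 8), -0.22 (both doses, day 29), -0.43 (both doses, day 85), -0.12 (3 mg/kg, day 29), 0.32 (50 mg/kg, day 8), -0.31 (50 mg/kg, day 29), -0.52 (50 mg/kg, day 85), 0.088 (50 mg/kg, day 309 minus 237), Mgp in lining cells 0.72 (both doses, day 8), -0.032 (both doses, day 29), 0.42 (3 mg/kg, day 8), -0.042 (3 mg/kg, day 29), 1.02 (50 mg/kg, day 8), -0.022 (50 mg/kg, day 29), -0.76 (50 mg/kg, day 309), -0.93 (both doses, day 183 minus 8), -0.92 (50 mg/kg, day 183 minus 8), Mgp in osteocytes -0.095 (both doses, day 29). With the vessel marker covariate the call ended for Bglap in osteoblasts 1.33 (50 mg/kg, day 85), Mgp in osteoblasts 0.73 (50 mg/kg, day 237), Bglap in osteocytes -0.90 (50 mg/kg, day 85), -0.94 (50 mg/kg, day 183), Mgp in osteocytes 2.001 (50 mg/kg, day 183), 1.34 (50 mg/kg, day 237), Bglap in osteocytes -0.96 (50 minus 3 mg/kg, day 183), Mgp in osteocytes 1.89 (50 minus 3 mg/kg, day 183), 1.19 (50 minus 3 mg/kg, mean of dosing days), Bglap in osteocytes -1.49 (50 mg/kg, day 183 minus 8). In fits of the compared groups alone the call ended for Bglap in osteoblasts 1.31 (50 mg/kg, day 85), Bglap in lining cells -2.11 (3 mg/kg, day 197), Bglap in osteocytes -1.18 (3 mg/kg, day 197), -1.16 (50 mg/kg, day 85), -1.21 (50 mg/kg, day 183), Mgp in osteocytes 2.87 (50 mg/kg, day 237), Bglap in osteocytes 0.90 (50 mg/kg, day 309), -1.22 (50 minus 3 mg/kg, day 183). In fits of the compared groups alone a call was gained for Bglap in osteoblasts 0.80 (50 mg/kg, day 8), Mgp in osteoblasts 1.16 (50 mg/kg, day 183), Bglap in lining cells 1.53 (both doses, day 29), Mgp in lining cells 1.83 (50 mg/kg, day 237), 1.24 (50 minus 3 mg/kg, day 183), Mgp in osteocytes 1.79 (both doses, day 183), Bglap in osteocytes 0.79 (3 mg/kg, day 267), Mgp in osteocytes 2.92 (50 mg/kg, day 85). Without day 8 the sign turned for Bglap response of osteoblasts minus lining cells, both doses 0.043. Without day 29 the sign turned for Bglap response of osteoblasts minus lining cells, both doses 0.18, Mgp osteoblasts minus lining cells in vehicle 0.036. Without day 29 the call ended for Bglap response of lining cells minus osteocytes, 50 mg/kg 0.84. Without day 85 the sign turned for Mgp response of osteoblasts minus lining cells, both doses 0.070, Bglap response of osteoblasts minus lining cells, 50 mg/kg -0.28, Mgp response of osteoblasts minus lining cells, 50 mg/kg 0.14. Without day 85 the call ended for Bglap response of osteoblasts minus osteocytes, 50 mg/kg 0.66, Mgp response of osteoblasts minus osteocytes, 50 mg/kg -1.51, Bglap response of lining cells minus osteocytes, 50 mg/kg 0.94, Mgp response of lining cells minus osteocytes, 50 mg/kg -1.65. Without day 183 the call ended for Mgp response of osteoblasts minus osteocytes, 50 mg/kg -1.68, Mgp response of lining cells minus osteocytes, 50 mg/kg -1.37. With values as deposited the sign turned for Mgp osteoblasts minus lining cells in vehicle 0.51. With arrays centred on their median the sign turned for Mgp osteoblasts minus lining cells in vehicle 0.19. Without day 309 the sign turned for Mgp osteoblasts minus lining cells in vehicle 0.043.

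With each array left out in turn, these values crossed the threshold, over the range given: Bglap in lining cells -2.44 to -1.86 (3 mg/kg, day 197), 1.88 to 2.18 (50 mg/kg, day 29), Bglap in osteoblasts -2.02 to -0.95 (50 mg/kg, day 237), 1.0002 to 1.50 (50 mg/kg, day 85), 0.51 to 0.66 (50 minus 3 mg/kg, mean of dosing days), Bglap in osteocytes -1.40 to -0.98 (3 mg/kg, day 197), -1.49 to -0.71 (50 mg/kg, day 183), 0.76 to 1.13 (50 mg/kg, day 309), -1.39 to -0.98 (50 mg/kg, day 85), -0.45 to -0.26 (50 minus 3 mg/kg, mean of dosing days), Mgp in lining cells 1.47 to 2.25 (50 mg/kg, day 237), Mgp in osteoblasts 0.81 to 1.99 (50 mg/kg, day 237), 0.82 to 1.40 (50 mg/kg, day 309), Mgp in osteocytes 2.32 to 3.64 (50 mg/kg, day 237), 2.48 to 3.25 (50 mg/kg, day 85). Changes of the Bglap response between days also crossed it: osteoblasts 1.37 to 2.44 (50 mg/kg, day 309 minus 237), lining cells 2.41 to 2.99 (3 mg/kg, day 267 minus 197), osteocytes -2.10 to -1.32 (50 mg/kg, day 183 minus 8). For 50 minus 3 mg/kg in osteocytes on day 183, Bglap (-1.50 to -0.72) and Mgp (2.87 to 3.63) crossed it. With each array left out in turn, these uncalled values crossed 0: the Bglap response minus that of Mgp -0.43 to 0.13 (lining cells, day 183), -0.58 to 0.27 (lining cells, day 267), -0.45 to 0.70 (osteocytes, day 29), -1.25 to 0.39 (osteocytes, day 309), -0.16 to 0.28 (osteocytes, day 8), Bglap in lining cells -0.27 to 0.30 (3 mg/kg, day 183), -0.28 to 0.29 (50 mg/kg, day 85), -0.45 to 0.032 (both doses, day 183), Bglap in osteoblasts -0.39 to 0.19 (3 mg/kg, day 183), -0.12 to 0.30 (3 mg/kg, day 29), -0.30 to 0.19 (50 mg/kg, day 183), -0.25 to 0.36 (50 minus 3 mg/kg, day 183), -0.25 to 0.10 (both doses, day 183), Bglap in osteocytes -0.19 to 0.19 (3 mg/kg, day 183), -0.0020 to 0.25 (3 mg/kg, day 29), Mgp in lining cells -0.55 to 0.071 (3 mg/kg, day 197), -1.05 to 0.15 (3 mg/kg, day 8), -0.052 to 0.76 (50 mg/kg, day 29), -0.41 to 0.23 (50 mg/kg, day 309), -0.25 to 0.26 (both doses, day 183), Mgp in osteoblasts -0.28 to 0.18 (3 mg/kg, day 267), -0.15 to 0.48 (3 mg/kg, day 29), -0.27 to 0.12 (3 mg/kg, day 85), -0.20 to 0.42 (50 mg/kg, day 29), -0.18 to 0.45 (both doses, day 29), -0.048 to 0.15 (both doses, day 85), -0.87 to 0.30 (50 mg/kg, day 309 minus 237), Mgp in osteocytes -0.23 to 0.53 (3 mg/kg, day 183), -0.026 to 0.81 (50 mg/kg, day 8), -0.42 to 0.67 (both doses, day 29).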
